A study of Mus musculus with 6 samples.

Results

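Sharp peaks of anti-m6A signal inside genes were followed window by window in fetal mouse hearts. The members are 6478 windows in 1118 genes, out of 5193362 windows in 48505 genes. A window was taken when its gene had at least 40 windows, its mean level over all 6 libraries was at least 20 normalized reads, that mean was at least 5 times the mean window of the same gene, and it lay from 0.2 to 0.8 along the gene in window order. Members were thus chosen by their measured levels over all libraries, and their height above the gene is a description with no test. The tests are on the difference between the groups, which the choice did not use directly. The mean over all libraries does let in windows that are high in 1 group alone, and their difference is partly set by the choice, as stated where they come up.

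N6-methyladenosine (m6A) is a methyl mark that a writer complex places on adenosines of messenger and long noncoding RNA, that demethylases can remove, and that reader proteins bind. It sits in short clusters of sites, many of them in long internal exons and near the stop codon, and it is known to affect splicing, translation and RNA decay. In anti-m6A sequencing RNA is fragmented and bound to an antibody, so that each methylated site gives a local mound of reads about as wide as the fragments (the immunoprecipitate, IP). A sharp mound inside a gene is the shape by which such sites are usually recognised. The antibody also pulls down some unmarked RNA, and a read pile can arise without a mark.

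The samples were 6 IP libraries from hearts of wild-type FVB/NJ fetuses, 3 from dams that breathed filtered air (sham) and 3 from dams exposed to aerosolized nano-sized titanium dioxide (nano-TiO2). Exposure aimed at 12 mg/m3, for 360 minutes on each of 6 days within 8 days from gestational day 5, and hearts were taken on gestational day 15. Dams were 10 weeks old. Each library came from pooled hearts of males and females. Which litters went into which pool is not stated, so p-values measure only the spread between these samples, which may be technical. All values are IP signal with no input library beside it, so a change in the amount of an RNA and a change in the part of it that carries the mark cannot be told apart in the level. In such bulk samples fewer cells of a type and less RNA per cell cannot be told apart either.

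Summed over all windows, the read counts of a library came to 20205024 to 31523675, and 2.3% to 3.17% of these sums fell in members. A read may be counted in more than 1 window, so the sums are not library sizes. Members took 2.89%, 2.30% and 3.17% of the summed counts of the sham libraries against 2.70%, 2.71% and 2.84% of those of the nano-TiO2 libraries, so the groups overlapped. The files give each window as an Ensembl gene ID and a start, and 0 of the 48505 IDs were paired with a symbol in the tables at hand. Members are therefore given by ID and by values, without gene names, coordinates or sequence, and markers of heart cells could not be checked. Strand was not given, so it is not known which end of a gene the low starts are.

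Nearly all members belonged to mounds broader than a window. Windows start 25 nt apart in 99.55% of neighbouring pairs, and members that were neighbours formed 2774 regions. Of these, 1606 were 1 window wide, 739 were 2 or 3 windows wide, 334 were 4 to 8 and 95 were 9 or more, up to 37 windows. A gene held a median of 3 members and at most 61; 501 genes had 1 region, 222 had 2 and 395 had 3 or more, up to 15. The median member had a mean level of 45.4 normalized reads and stood 6.51 times above the mean window of its gene, in genes with a median of 246 windows. Members were spread over the inner part of the gene with no empty stretch, from 919 members at position 0.6 to 0.7 up to 1266 at 0.7 to 0.8.

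The mounds had a like outline in both groups, as a description with no test. Around the top window of 2488 regions, the window 25 nt to either side held a median of 71.8% and 71.9% of the top in sham against 71.4% and 71.2% in nano-TiO2. At 125 nt the medians were 52.8% and 52.4% in sham against 54.1% and 52.4% in nano-TiO2, and at 250 nt they were 10.6% and 8.34% against 12.3% and 10.1%. At 500 nt the signal was down to 0.905% and 0.942% of the top in sham against 1.50% and 1.55% in nano-TiO2. The top was chosen as the highest window, so its step above its neighbours is partly set by that choice. The labels give fragments of 250 to 350 nt, which is of the size of these mounds.

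**Figure D1:**
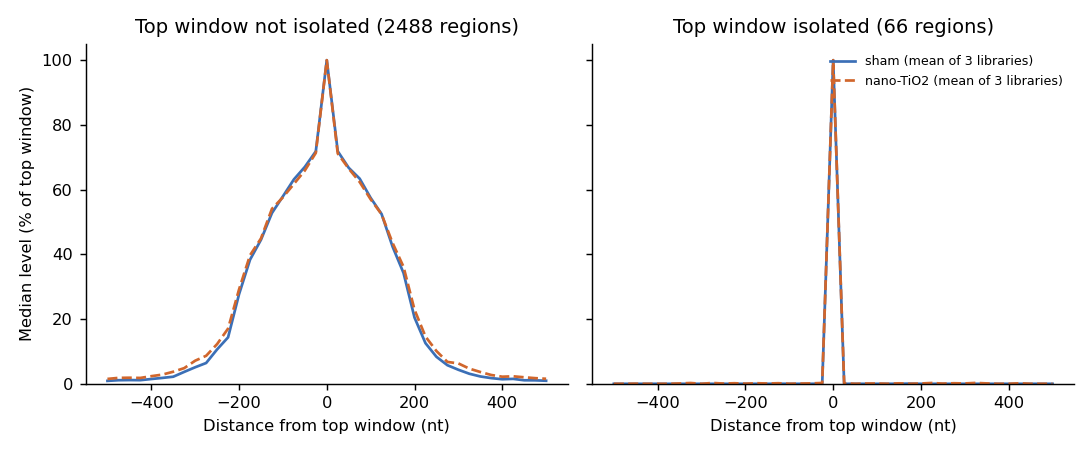
Median level around the top window of a region, as percent of that window, against distance in nt, for the sham mean (solid) and the nano-TiO2 mean (dashed). The profile covers 2488 and 66 of the 2774 regions, and the rest are not drawn. Regions whose top window is not isolated (left, 2488 regions) fall to between 71.2% and 71.9% at the next window and to 8.34% to 12.3% at 250 nt in both groups; regions whose top window is isolated (right, 66 regions) fall to at most 0.244% at the next window.

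A small set of members had no mound. In 87 members in 81 genes both neighbouring windows were at 10% or less of the window, and in 18 of these neither neighbour held a read in any library. These windows, called isolated here, were defined after the values were seen. Around 66 isolated top windows the neighbour at 25 nt held a median of 0% to 0.0579% of the top in sham against 0.18% to 0.244% in nano-TiO2. They were sharper than the other members, with a median ratio of 35.5 to the mean window of the gene against 6.48, and they lay in shorter genes, with a median of 121 windows against 250. Where a result below rests on them it is given with and without them.

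The thresholds cut through a continuum. The 3 members nearest to the ratio threshold stood 5.00017 to 5.00071 times above their gene and the 3 nearest windows left out 4.99953 to 4.99985 times. The 3 members nearest to the level threshold had means of 20.0025 to 20.0321 and the 3 nearest windows left out had means of 19.9904 to 19.9985. When each group was taken alone, 4924 members passed both thresholds in both groups, 931 in sham only, 590 in nano-TiO2 only and 33 in neither. Those passing in 1 group alone lean that way by the choice, with a median log2 change of -0.57 for sham only and 0.56 for nano-TiO2 only.

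The highest regions show what a strong inner peak looks like in each library. The highest was 5 windows wide in a gene of 259 windows and summed to 14866.5, 18419 and 23579.8 normalized reads in sham against 13876, 10074 and 15364 in nano-TiO2, so the groups overlapped. It held 12.1%, 12.6% and 12.2% of its gene's signal in sham against 12.1%, 11.6% and 12.5% in nano-TiO2. The next was 16 windows wide in a gene of 176 windows and held 93.9%, 94.7% and 94.2% of the gene in sham against 93.6%, 93.9% and 93.4% in nano-TiO2, nearly all of the gene's signal. Its level was 18919.8, 15331 and 21122.8 in sham against 10990.1, 8438.9 and 11271.5 in nano-TiO2. Here the groups did not overlap, and the limma adjusted p of 0.0695 missed the threshold of 0.05. Of the 6 highest regions, each from another gene, 5 had every nano-TiO2 library below every sham library, and 2 of them were called lower (limma adjusted p = 0.0485 and 0.0274). Such separation was common at high levels. Among all windows tested with a mean of at least 300, 6584 of 9991 had every nano-TiO2 library below every sham library. In none of the 6 highest regions was the top window called in its share of the gene (limma adjusted p from 0.892 to 0.982).

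Over all members the level was more often lower than higher after nano-TiO2. In limma on log2(level + 1), fitted to all 250317 windows with a mean of at least 10, 1117 members in 310 genes were called lower and 351 members in 69 genes were called higher at an adjusted p under 0.05. These are 17.2% and 5.42% of the members, against 7.32% lower and 3.88% higher among all windows tested. The 2 sets differ in level, with medians of 45.4 and 22.1 normalized reads, and calls of lower rose with level, as given below by class. The median member changed by -0.32 on the log2 scale, with quartiles of -0.65 and 0.11, and the median of all windows tested was -0.13. Of the 4924 members that passed in both groups alone, 946 were called lower and 192 higher, with a median of -0.33. Sharp windows nearer to the gene ends, taken by the same level and ratio, had 1337 of 8739 called lower and 596 higher (15.3% and 6.82%), with a median of -0.24. Inner windows with a mean of at least 20 that were not sharp had 5919 of 66690 called lower and 3106 higher (8.88% and 4.66%), with a median of -0.21. Every nano-TiO2 library was below every sham library in 2256 members and above in 661, beside 19.7% and 11.5% of all windows tested. Neighbouring windows share fragments, so regions were also counted once: 465 regions in 286 genes were lower and 169 regions in 67 genes were higher, where the table with regions had 7.14% and 3.83% called. No gene had regions called both ways. The median fold was 1.83 among regions called lower and 2.17 among those called higher. Nearby regions of a gene can still share fragments, so regions are not independent either. With members up to 4 ranks apart joined, 360 of 1848 regions were called lower and 106 higher. The counts moved with single libraries: without sham replicate 1 or 3, 700 and 972 members were called in all, and without nano-TiO2 replicate 1 or 3, 804 and 851; for regions, leaving out sham replicate 1 gave 305 calls, and leaving out nano-TiO2 replicate 1 or 3 gave 333 and 356.

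This direction depends on the scale of the libraries. With totals set equal the median member's change was 0.17, and 953 members were called higher and 47 lower; all windows tested then had a median of 0.34. With TMM factors, which set the libraries level over most windows, 450 members were called in each direction. The distance of the members from all windows tested moved less: the median of the members minus that of all windows was -0.18 with the deposited scaling, -0.18 with TMM, -0.17 with equal totals and -0.06 with quantile normalization. The 2 sets differ in level, and the distance was not seen at each level. With the deposited scaling the medians of members and all windows were -0.09 and -0.10 at a mean of 20 to 30, and -0.15 and -0.19 at 30 to 50. Each of the 351 members called higher kept its side under TMM, equal totals and quantile normalization. Of the 1117 called lower, 1117, 1117 and 1116 kept their side, but 450, 47 and 123 kept their call. With the trend on gene length removed, 342 of the 351 kept their side and 82 their call, and of the 1117 lower members 1117 and 620 did.

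**Figure D2:**
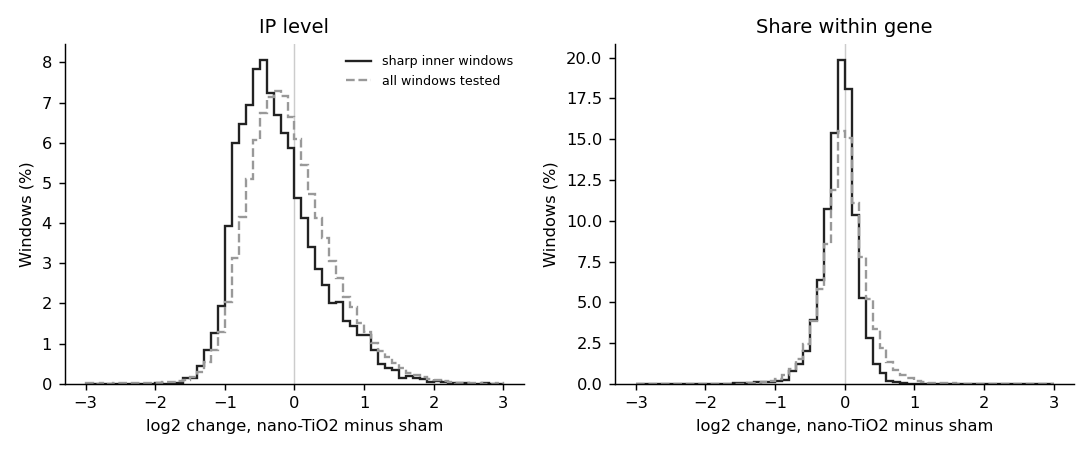
Percent of windows by log2 change (nano-TiO2 minus sham, bins of 0.1), for the sharp inner windows (solid) and all windows tested (dashed), in IP level (left) and in share within gene (right). Share is taken here as the window against the rest of its gene. The level changes of the sharp windows centre at -0.32 and are wide; their share changes centre at -0.05, and 93.9% lie within 0.5 of 0. Changes past 3 either way are drawn in the end bins.

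Gene totals nearly always lay on the same side as their called windows. The total includes the called window and the other members of the gene, so part of this is built in. Each of the 351 members called higher lay in a gene whose total was higher too, with a median change of 1.10 for the window and 1.05 for the gene. Of the 1117 members called lower, 1111 lay in genes whose totals were lower, with medians of -0.89 and -0.80. Accordingly the share of the gene held by these windows changed little, by a median of 0.00 for those called higher and -0.07 for those called lower. The gene that held most members shows this: it had 61 members in 11 regions over 553 windows, their level changes ran from -0.98 to -0.23, 7 were called lower, and the median share change was -0.03. In a gene of 475 windows, with 39 members in 6 regions, each of the 39 was called higher, with changes from 0.71 to 1.27 and a median share change of -0.04. Share moved more in other genes with many members. A gene of 533 windows with 40 members had level changes from -0.39 to 0.45, none called, and a median share change of -0.23. In a gene of 767 windows with 39 members, level changes ran from -1.07 to 0.30, 11 were called lower, and the median share change was 0.18.

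The largest rises were low peaks in genes whose totals were higher in every nano-TiO2 library. Each of the 4 largest had a sham mean of 6.54 to 10.1 normalized reads and passed the thresholds in nano-TiO2 alone and not in sham alone, so its direction was partly set by the choice. The largest was a window of ENSMUSG00000004085, at 6.30, 6.57 and 6.76 normalized reads in the sham libraries against 26.8, 33.9 and 41.9 in the nano-TiO2 libraries. The groups did not overlap, and on the log2(level + 1) scale the fold was 4.60 with an SE of 0.34 in log2 (n = 3 and 3, limma adjusted p = 0.00534). Its gene total was 541, 497 and 509.5 in sham against 2271, 1522 and 2120 in nano-TiO2, so the window held 1.27% ± 0.0919 of the gene in sham against 1.79% ± 0.548 in nano-TiO2 (SD, n = 3 each), and its share was not called (limma adjusted p = 0.929). The next was a window of ENSMUSG00000002265, at 18.0, 7.67 and 1.35 in sham, where the libraries spread widely, and at 27.9, 28.1 and 39.5 in nano-TiO2. Its log2 change was 2.15 ± 0.55 (SE, limma adjusted p = 0.0206), and the change was 1.337 without sham replicate 3 and 1.70 in edgeR, both still called. The call was lost without nano-TiO2 replicate 3 (change 1.99, limma adjusted p = 0.0916) and with the length trend removed (1.74, limma adjusted p = 0.0843). The reads behind these windows were few, 5 to 7 and 1 to 20 per sham library. All 4 of the largest rises were 1 window wide, and none had a called share (limma adjusted p from 0.826 to 0.991).

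The largest fall in level was a window of ENSMUSG00000073867. It and the next 2 falls passed the thresholds in sham alone and not in nano-TiO2 alone, so their direction was partly set by the choice. It stood at 62.1, 31.8 and 44.6 normalized reads in sham against 11.2, 9.10 and 12.9 in nano-TiO2, with no overlap. The log2 change was -1.93 ± 0.31 (SE, n = 3 and 3, limma adjusted p = 0.00534). The gene total did not separate the groups, at 165.5, 67.9 and 119 in sham against 89.3, 44.7 and 55.6 in nano-TiO2. The window held 37.5%, 46.8% and 37.5% of the gene in sham against 12.5%, 20.4% and 23.2% in nano-TiO2, and its share was called lower too. The log2 change of the window against the rest of the gene was -1.53 ± 0.29 (SE, limma adjusted p = 0.0314), which is larger than the change in the percents. That share call was kept in 2 of the 6 fits that left out a library, with a highest adjusted p of 0.198. Of the 4 largest falls, 2 had a called share; the other two had share changes of -0.31 and -0.79 that were not called (limma adjusted p = 0.881 and 0.406).

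**Figure D3:**
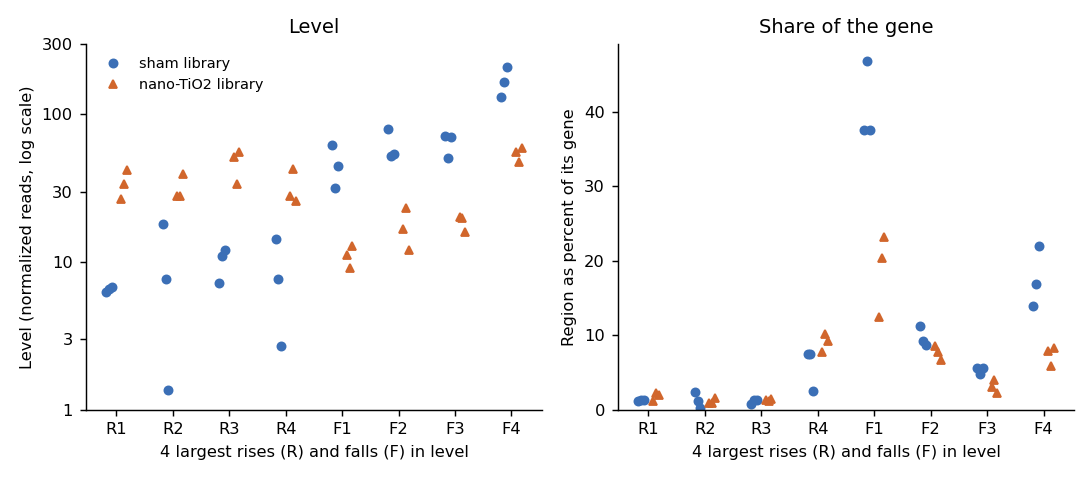
The 4 regions with the largest called rises (R1 to R4) and the 4 with the largest called falls (F1 to F4) in level, each point a library: level in normalized reads on a log axis (left) and the region's percent of its gene (right). R1 is in ENSMUSG00000004085, R2 in ENSMUSG00000002265 and F1 in ENSMUSG00000073867. In level the groups are apart in every region; in percent of the gene the groups overlap in R1 to R3, and the nano-TiO2 libraries are all above sham in R4 and all below in the 4 falls, in F2 by little (8.57% against 8.64%).

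The direction followed the length of the gene and the height of the peak. In genes of 40 to 100 windows the median member stood at 85.0, 80.5 and 85.8 normalized reads in sham against 62.5, 57.1 and 62.8 in nano-TiO2, and 217 of 642 members were called lower and 3 higher. In genes of over 100 and up to 200 windows the medians were 82.3, 84.3 and 97.3 against 59.1, 54.6 and 63.2, with 614 of 1810 lower and 13 higher. In genes of over 200 and up to 400 windows they were 40.5, 43.8 and 43.2 against 36.8, 37.2 and 39.5, with 261 of 2951 lower and 84 higher. In genes of over 400 windows the order turned, at 29.7, 35.0 and 33.8 in sham against 44.6, 38.1 and 44.3 in nano-TiO2, with 25 of 1075 lower and 251 higher. The median log2 changes in these 4 classes were -0.50, -0.59, -0.27 and 0.42. All windows tested had medians of -0.35, -0.12, 0.07 and 0.54 in the same classes, so members lay below them in each. Of all windows tested 12.9%, 4.02%, 1.58% and 0.775% were called lower in the 4 classes, against 33.8%, 33.9%, 8.84% and 2.33% of the members. The percents called higher were 0.482, 3.02, 5.57 and 19.4 for all windows, against 0.467, 0.718, 2.85 and 23.3 for the members. With the length trend taken out of each library, 732 members were called lower and 89 higher. High peaks were lower: of 453 members with a mean of at least 300, 317 were called lower and 0 higher (median -0.81), whereas of 1649 members at 20 to 30, 46 were called lower and 96 higher (median -0.09). All windows tested had the same trend: at a mean of at least 300, 4858 of 9991 were called lower and 76 higher (median -0.66), and at 20 to 30, 925 of 43166 lower and 2117 higher (median -0.10). The percents called lower were 70.0 for members and 48.6 for all windows in the high class, and 2.79 and 2.14 in the low class. The 2 measures are linked, since members of genes with over 400 windows had a median level of 38.2 and those of genes with 40 to 100 windows 73.3.

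**Figure D4:**
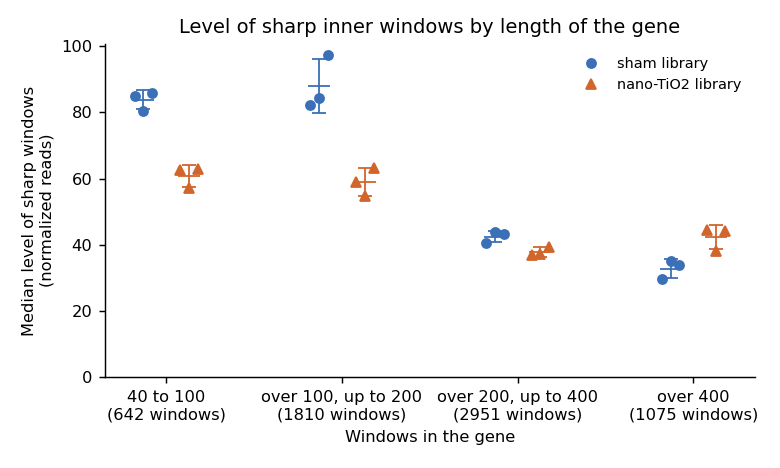
Median level of the sharp inner windows in each library (points), in normalized reads, by the number of windows in the gene, with the mean and SD of the 3 libraries of a group. The nano-TiO2 libraries lie below the sham libraries in the first 3 classes and above them in genes of over 400 windows.

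A window's share of its gene is not touched by the scaling of libraries, apart from the added 1, and few members were called in it. Each window was set against all other windows of its gene in the same library, as log2((window + 1) / (rest + 1)), and fitted over the same 250317 windows. Share changes on the log2 scale are changes of this ratio throughout. Where a window holds much of its gene, they are larger than the change in its percent of the gene. In limma 32 members were called lower and 0 higher, 0.494% of the members lower, against 0.0431% lower and 0.0204% higher among all windows tested. Without adjustment, 598 members had a p under 0.05, 497 of them lower, which is 7.67% of the members against 3.5% of all windows tested. Of the 497, 185 were among the 931 members that passed in sham alone, where a loss is partly set by the choice. Among the 4924 members that passed in both groups alone, 304 were lower (6.17%). Their median share change was -0.04, with 59.65% below 0. The median share change of the members was -0.05, with 61.2% of them below 0, and that of all windows tested was -0.01. In 93.9% of members the share changed by less than 0.5 on the log2 scale, while the level did so in 51.6%. Sharp windows nearer to the gene ends had 43 of 8739 called lower in share and 0 higher, with a median of -0.08. Among the other tested windows of the members' own genes, 24 of 34614 were called higher in share and 3 lower. Per gene, members together held a median of 20.5%, 20.7% and 20.4% of the signal in the sham libraries against 20.0%, 18.6% and 20.0% in the nano-TiO2 libraries. Each nano-TiO2 library was below each sham library, most of all nano-TiO2 replicate 2. These sums include the 931 members that passed in sham alone and the 590 that passed in nano-TiO2 alone, so this small difference is partly set by the choice.

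The 32 members called lower in share lay in 26 genes and 30 regions. Where the rest of the gene is nearly empty, such a call follows the window's level. A called window in a gene of 72 windows held 100% of it in every sham library and 100%, 100% and 96.9% in nano-TiO2. Its mean level was 124 normalized reads in sham against 65.5 in nano-TiO2. Of them 26 passed the thresholds in both groups alone and 6 in sham alone, where a loss is partly set by the choice. Their log2 changes ran from -2.38 to -0.58 with a median of -1.21. In 29 of them every nano-TiO2 library held a smaller percent of the gene than every sham library. The window's own level changed by a median of -0.78 and was below 0 in 32 of 32, and the rest of the gene changed by a median of 0.60 and was above 0 in 27 of 32. The call is itself a fall of the window against that rest. These directions and the 29 of 32 are thus partly set by the call and are a description. In level, 13 of the 32 were called lower and 0 higher. In the genes concerned 33.2%, 32.3% and 31.1% of windows held a read in the sham libraries (median over 26 genes) and 42.9%, 46.8% and 49.5% in the nano-TiO2 libraries; in genes with members but no isolated window the figures were 40%, 38.5% and 36.1% against 41.5%, 46.4% and 44.2%. In the 81 genes of isolated members the groups overlapped, at 28.1%, 26.8% and 25.2% against 26.2%, 30.0% and 28.9%. Over the whole series 997523 to 1145132 windows held a read in the sham libraries and 1271555 to 1484331 in the nano-TiO2 libraries. The part of the wider coverage in the share result was not tested. Of the 32, 14 were called whichever library was left out, and the count was 19 without sham replicate 1 and 21 without sham replicate 3.

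Isolated windows made up 21 of the 32, in 20 genes, although they are 1.343% of all members. Among the 87 isolated members the median share change was -0.40 and 82.8% were below 0. Without them 11 of 6391 members were called lower and 0 higher, with a median of -0.05. Of the 87, 71 passed the thresholds in both groups alone, and 17 of these were called lower in share. Their median share change was -0.37, with 78.9% below 0, and in level 29 of the 71 were called lower and 0 higher. For isolated members that passed in 1 group alone, the difference is partly set by the choice. Genes with isolated members held a median of 31.7%, 29.6% and 29.7% of their signal in them in sham against 26.5%, 22.3% and 23.9% in nano-TiO2. For members that were not isolated the medians were 19.6%, 19.3% and 19.3% against 19.4%, 18.3% and 19.1%. The level of isolated members was lower as well, at a median of 61.2, 55.9 and 68.9 normalized reads in sham against 41.3, 37.2 and 43.5 in nano-TiO2, with 37 called lower and 0 higher (42.5%). Isolated windows outside the members, which are lower, less sharp, near a gene end or in shorter genes, numbered 1060, and 16 of them were called lower in share and 0 higher, with a median of -0.06. In level 269 of the 1060 were called lower (25.4%) and 1 higher, with a median of -0.66. Whether a single window with next to nothing beside it reflects an m6A site was not tested.

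The largest loss of share was in an isolated window of ENSMUSG00000020859. The window stood at 48.6, 38.3 and 41.9 normalized reads in sham against 15.6, 19.9 and 21.7 in nano-TiO2, whereas its gene total was 287, 333 and 368 in sham against 749, 589 and 757 in nano-TiO2. Its share thus went from 16.9%, 11.5% and 11.4% of the gene to 2.09%, 3.37% and 2.87%. Against the rest of the gene its log2 change was -2.38 ± 0.25 (SE, n = 3 and 3, limma adjusted p = 1.95e-05). Its neighbours held at most 0.89% of its level. With a mean of 19.1 in nano-TiO2 it passed the thresholds in sham alone, so its lower level was partly set by the choice. Under limma's diffSplice its share change was -0.34, with an adjusted p of 1. The next largest log2 change was in a gene of 128 windows with nearly no other signal. There the window held 97.1%, 100% and 95.8% of the gene in sham against 85.3%, 86.2% and 87.5% in nano-TiO2, on gene totals of 24.0 to 64.9 normalized reads. Its change of -2.18 is against that small rest, and its percent of the gene changed far less. Its level changed by -0.82 (limma adjusted p = 0.0867), and by 0.22 in the authors' adjusted table, taken up below (limma adjusted p = 0.787).

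The sharpest member of all stood 357 times above the mean window of its gene, at rank 497 of 664 windows. It held 61.9%, 63.2% and 66.4% of the gene in sham against 43.2%, 44.9% and 47.8% in nano-TiO2, with no overlap. Against the rest of the gene its log2 change was -1.08 ± 0.12 (SE, limma adjusted p = 3.7e-05), which is larger than the change in the percents. Under diffSplice the change was 0.13, with an adjusted p of 1, so that call rests on what the window is set against. Its own level differed little between groups, at 140, 152 and 189 normalized reads in sham against 134, 128 and 160 in nano-TiO2 (limma adjusted p = 0.584). The gene total was 227, 241 and 285 in sham against 310, 285.5 and 333 in nano-TiO2. Of the 6 regions with the highest ratio, each from another gene, 3 had their top window called lower in share, and 4 of the 6 had an isolated top window.

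One gene of 344 windows held 6 of the 32 members, in 5 regions between ranks 111 and 147. Their shares fell by 0.74 to 1.01 on the log2 scale while their levels changed by -0.27 to 0.00, none of which was called. The gene total was 1938.5, 1379 and 1345 normalized reads in sham against 2304, 2507 and 2553 in nano-TiO2, with no overlap. The highest of the 6 stood at 275, 183 and 155 in sham against 128, 180 and 209 in nano-TiO2, and held 14.2%, 13.3% and 11.6% against 5.57%, 7.16% and 8.20% of the gene. These 6 windows share a gene and are not separate observations of it. A further pair among the 32, in 2 genes of 79 and 103 windows, had levels within 2% of each other in every library, such as 3841, 3900.3 and 4160 in sham against 3315, 3198 and 3083 in nano-TiO2. They may be the same reads given to 2 genes, and no other members were so alike.

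**Figure D5:**
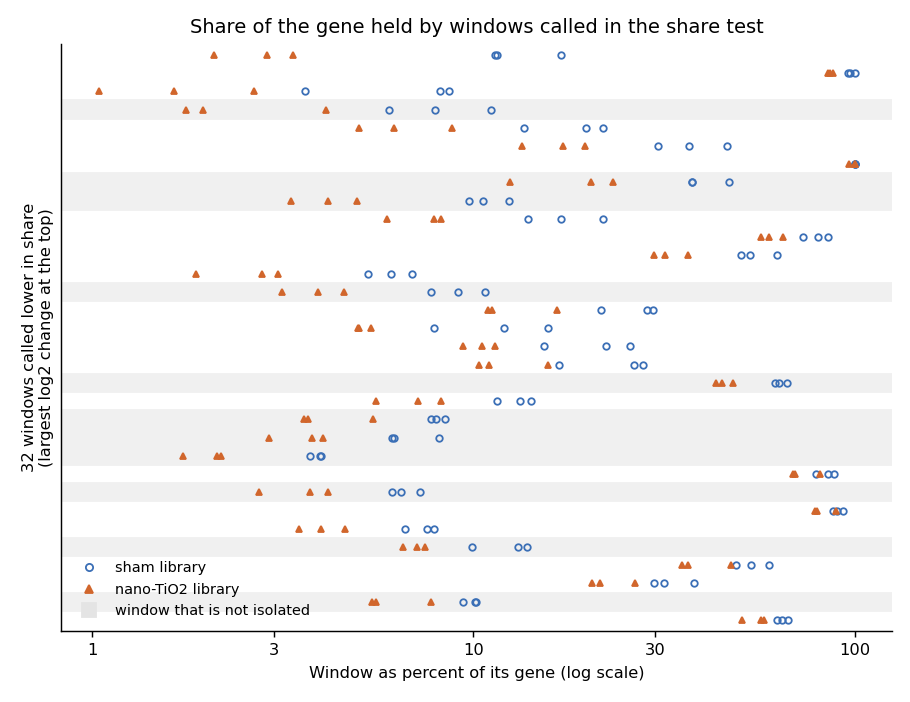
Percent of its gene held by each of the 32 windows called lower in share, on a log axis, each point a library, ordered by the log2 change with the largest at the top; the shaded rows are the 11 windows that are not isolated. In 29 of 32 rows the nano-TiO2 libraries lie to the left of the sham libraries, which the call itself partly sets.

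The share result rests on what each window is set against. With the 10 nearest windows on each side left out of the rest of the gene, 140 members were called lower and 7 higher. With limma's diffSplice, which sets a window only against the other tested windows of its gene, 2 of 6441 members were called lower and 0 higher.

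In the authors' adjusted table nearly no member was called. That table divides each window by 1 factor per gene and library, whose source is not given. In limma 1 member was called lower and 0 higher, against 0.00316% of 253327 windows called either way. The member called was the isolated window of ENSMUSG00000020859, with a log2 change of -2.06 (limma adjusted p = 0.018), which passed the thresholds in sham alone. The call was lost when sham replicate 1, 2 or 3 or nano-TiO2 replicate 1 or 3 was left out, while the change stayed below 0 each time. The median member changed by -0.04 and the median of all windows tested was 0.09.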

How the data were processed

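Anti-m6A IP libraries of 3 sham and 3 nano-TiO2 pools were grouped by their titles. The submitters' processing notes list Salmon 1.5.2, HISAT2 2.2.1, DESeq2 1.34.0 and the build GRCm39, with no role for any. Window construction and strand setting are not given in the sources used here. The authors deposited a normalized IP signal per window, and 100% of its values were whole reads divided by 1 size factor per library (tolerance 0.0001). The authors also deposited an adjusted score per window, which is the normalized value over a factor per gene and library, rounded. A further table, equal to the first, was not used.

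The members and lists were chosen with earlier results of these data known. The test was limma (version 3.58.1, with a trend, under R 4.3.3) over windows of mean 10 or more, on log2(value + 1), which understates changes of low windows, two-sided and with no covariate, with Benjamini-Hochberg adjustment over the whole table. Shares were tested in the same way, and so were regions, the sums of neighbouring members. edgeR 4.0.16 and DESeq2 1.42.0 on the recovered reads, other scalings, filters and each library left out were tried as alternatives. Regions named are the 6 highest, the 6 sharpest and the 4 largest called rises and falls, and at most 2 IDs that rose and 2 that fell are printed. Tests were tried on simulated data. Sequence motifs, marker lists and gene lists were not used here, since no ID had a symbol and no genome was at hand. Depth differs by library, and floors or intervals from reads would cover counting error only. Python 3.11.15, pandas 2.3.3, NumPy 2.4.6 and matplotlib 3.10.9 prepared tables and figures.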

Additional observations from a re-analysis of the deposited data

How the results depend on the processing

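Members called in level numbered 1468. They numbered 900 with TMM, 485 with quantile normalization, 821 with the length trend removed, 286 among members with a ratio of at least 10 (1065 members), 945 among those at position 0.3 to 0.7 (4094 members) and 700 to 1120 with each library left out; edgeR called 1508 and DESeq2 1169. The median member's change of -0.32 was 0.17 with equal totals, -0.15 with TMM, -0.12 with quantile normalization, -0.42 with the length trend removed, -0.52 over windows of mean 50 or more and -0.36 to -0.29 with each library left out. Regions called (634) numbered 305 to 500 with each library left out, the lowest without sham replicate 1, and 466 with members up to 4 ranks apart joined. Share calls (32) numbered 14 with a mean of at least 50, where fewer windows are tested, 19 at position 0.3 to 0.7, 147 without the nearest windows, 2 with diffSplice, 11 without isolated windows, an alternative chosen after seeing the data, and 19 to 30 with each library left out; sham replicates 1 and 3 took the count to 19 and 21. Under diffSplice 4 of the 32 turned sign, to 0.050, 0.20, 0.29 and 0.13. The 1 call in adjusted level became 0 with filters of 1 or 50, among members past the thresholds in each group alone, at position 0.3 to 0.7 and without isolated windows, 2 with a pseudocount of 5, and 0 to 2 with each library left out. Of the alternatives for the 8 largest rises and falls 102 kept the call and 2 lost it, and for the 32 shares 274 kept and 88 lost it.

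Same-numbered libraries did not deviate together: their correlations were -0.143, 0.070 and 0.041 in level, so the numbers were not taken to pair samples. With a replicate block, 1646 members were called in level, 31 in share, 8 in adjusted level and 740 regions. The cause of these differences was not tested. Few reads per window limit the low members: the largest rise rested on 5 to 7 reads in each sham library.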
